A study of Apis mellifera with 12 samples.

Results

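Female and male honeybee embryos were compared at 25–40 h after egg laying, with 2 female and 2 male RNA-seq libraries out of the 12 libraries of the series. The embryos were *Apis mellifera carnica*, and each of these libraries was made from poly(A) RNA of a pool of 60 whole embryos from 3 mothers. Honeybee females are diploid and males are haploid. According to the study's methods, queens that had mated naturally laid the female eggs, and CO2-treated queens that had not mated laid the male eggs, so sex and the kind of mother cannot be told apart where these pools were made that way. The labels give each age as a window of hours. The 4 libraries of 10–15 h and the 4 of 55–70 h, from pools of 100 and 30 embryos, served only as a reference for developmental progress. Whether replicate pools were independent collections is not in the labels, and the p-values rest on a spread that may be technical. Of 17621 loci in the files, 9403 were kept because their estimate was valid in all 4 libraries and their mean was at least 1 FPKM (fragments mapped to a transcript, scaled for its length and for the size of the library).

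An insect embryo starts with RNA that the mother placed in the egg. This RNA is then degraded while the embryo's own genome is switched on, and both processes change the transcriptome steeply within hours. Patterning follows a cascade: gap genes divide the early embryo into broad regions, pair-rule genes into repeated stripes, and segment polarity genes, which include the Hedgehog and Wnt pathways, hold the segment borders. Hox genes give the segments their identity, while mesoderm, nervous system, gut and cuticle form during and after gastrulation.

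The FPKM of the 4 libraries summed to 642048 and 617232 in females, against 515663 and 572884 in males. Between 8933 and 9582 loci reached 1 FPKM in a library. The number of reads is unknown, and the deposited confidence bounds gave relative depths of 1 and 0.869 in females, against 0.861 and 0.774 in males. Replicates correlated at 0.954 in females and 0.957 in males over log2(FPKM + 1). The spread within groups was larger at 25–40 h than at the other ages, with a median SD of 0.330 against 0.181 at 10–15 h and 0.276 at 55–70 h. In 2931 of the loci kept (31.2%), the FPKM of at least 1 library lay outside its own deposited bounds. Of 147 loci selected by name or size of difference, 96 overlapped another locus of the files, and 17 were joined with another gene, so that their FPKM are not those of the named gene alone. The second female library had the most transcripts of the mitochondrial genome, with summed levels of 10029 and 22107 FPKM in females, against 9747 and 13084 FPKM in males. As markers of the embryo itself, *eve*, *En*, *Kr* and the Hox genes were above 0 in all 4 libraries.

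At 25–40 h, 875 loci were higher in females (9.31% of those tested) and 738 were lower (7.85%) at an adjusted p under 0.05, 1613 in all (17.2%). The counts given below for gene lists are to be read against these shares. All differences are female minus male on the log2(FPKM + 1) scale, on which the change of a weakly expressed locus comes out too small. The median size of the called differences was 1.28 for loci that were higher and 1.45 for loci that were lower. Differences of at least 2 on this scale were seen in 118 higher and 150 lower loci. The female and male libraries did not overlap at any called locus, but they also did not overlap at 51.5% of all loci tested. The test was limma on all 12 libraries, in which the groups share an estimate of the spread. Because the spread was larger at 25–40 h than at the other ages, the shared estimate can make the SE and p-values given here too small. A fit of only the 4 libraries called 401 loci higher (4.26%) and 337 lower (3.58%), of which 384 and 327 were also called by the fit of 12. Rescaling every library to the same FPKM sum (TPM) shifted the median of all loci by −0.18 and changed the split to 701 higher and 1168 lower. The calls also depended on single libraries. They numbered 855 higher and 1490 lower without the first female library, 462 and 335 without the second female library, 367 and 353 without the first male library, and 637 and 518 without the second male library.

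Most loci that differed between the sexes were those that also changed between the younger and the older embryos. Of the 875 loci higher in females, 773 (88.3%) rose with age between 10–15 h and 55–70 h and 27 fell with age, with both sexes averaged. Of the 738 loci lower in females, 522 (70.7%) fell with age and 92 rose with age. Among all loci kept, 55.9% rose with age and 21.1% fell. The libraries that gave these changes with age were not among the 4 compared. Both tests share the estimate of the spread of a locus, however, so their calls are not fully independent.

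A progress index placed each library on the line from the mean of the 10–15 h libraries, set to 0, to the mean of the 55–70 h libraries, set to 1. It used 5569 loci that changed by at least 1 on the log2 scale between these ages. The index was 0.771 and 0.737 in the female libraries of 25–40 h, against 0.536 and 0.617 in the male libraries. Both female libraries thus lay closer to the oldest embryos than either male library. The mean difference was 0.177, and an exact two-sided permutation test of 2 against 2 libraries gave p = 0.333, the smallest it allows. The gap was wider over the 1386 loci that fell with age, with 0.80 and 0.916 in females against 0.419 and 0.509 in males. Over the 4183 rising loci the index was 0.763 and 0.689 in females against 0.567 and 0.645 in males. The index moves with the sex difference, and its part in the differences of single genes was not tested. Its loci had passed the filter on the mean of the same 4 libraries, which drops falling loci near 0 in both sexes. The labels do not place the embryos of a pool within the window of 25–40 h, so age within the window and sex cannot be told apart.

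**Figure D1:**
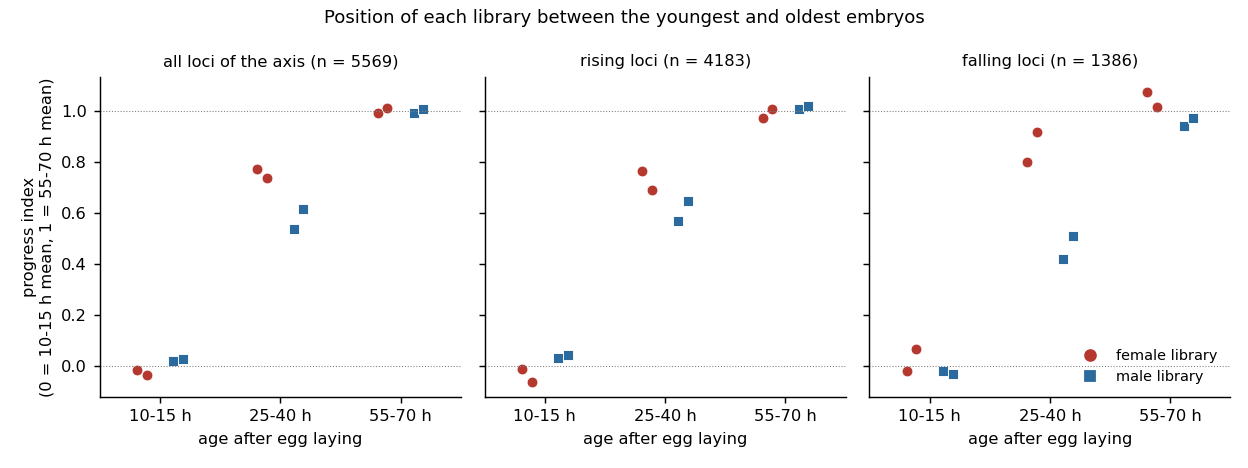
Progress index (y axis, no unit) of all 12 libraries by age (x axis) over all loci of the axis, over the rising loci and over the falling loci; circles are female and squares male libraries. At 25–40 h the female libraries sit at 0.771 and 0.737 and the male libraries at 0.536 and 0.617, and over falling loci the distance between the sexes is larger.

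The sex difference followed the size of the change with age. Of 122 loci that fell by more than 4 on the log2 scale from the youngest to the oldest embryos, 109 were called lower in females, none was called higher, and the median sex difference was −2.13. Loci that fell by 2 to 4 had a median of −1.01, with 271 of 521 called lower and 1 higher. At the other end, loci that rose by more than 4 had a median of 0.72, with 188 of 549 called higher and 4 lower. Loci that changed by less than 1 had a median of −0.10, with 170 of 3753 called higher and 183 lower. Among the loci kept, the steepest falling ones thus had a larger median difference than the steepest rising ones. The filter used the mean of the same 4 libraries. It drops a falling locus that is near 0 in both sexes and can keep one still present in a single sex. How far this shaped the medians and counts of the classes was not tested. Over all loci the median sex difference was −0.04.

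**Figure D2:**
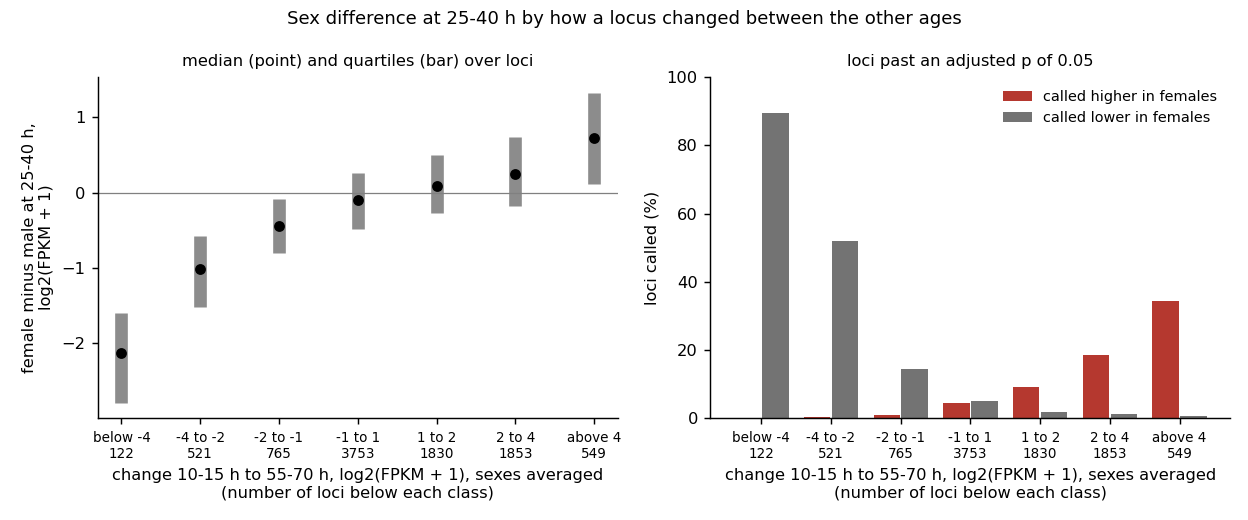
Left, median and quartiles of the female minus male difference at 25–40 h (y axis, log2(FPKM + 1)) in 7 classes of loci by their change from 10–15 h to 55–70 h (x axis, same scale). Right, percent of each class called higher or lower in females; the median runs between −2.13 in the class that fell most with age and 0.72 in the class that rose most.

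Among the genes with the largest deficits in females, *T3dh*, *Cyp314a1*, *Baiap3*, *Obp9*, *Knr*, *CPR13*, *yl*, *Amci* and *ced-6* had at least 100.2 FPKM in every library of 10–15 h. *mael* had no valid estimate there in males, and a *Csd* locus with a still larger deficit was listed at 0 at that age. *T3dh* (chromosome 10, 9218495 to 9221081), a type III alcohol dehydrogenase, had 2.0 and 1.10 FPKM in the female libraries, against 103 and 112 FPKM in the male libraries. The female values were close to those of the oldest embryos and the male values far above them. The difference was −5.43 ± 0.50 (SE, adjusted p = 1.04e-04). At 10–15 h the gene had 188 and 334 FPKM in females and 375 and 304 FPKM in males. An overlapping locus with the same symbol had 12.2 and 8.52 FPKM in females against 6.48 and 5.39 FPKM in males, a difference of 0.70 in the other direction, and was not called. The split of reads between these loci is uncertain.

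*Cyp314a1* (chromosome 5, 13904969 to 13908708), the hydroxylase that turns ecdysone into its active form 20-hydroxyecdysone, had 5.44 and 8.97 FPKM in the female libraries, against 338 and 144 FPKM in the male libraries. Its difference was −4.79 ± 0.37 (SE, adjusted p = 3.42e-05). By 55–70 h the level had fallen to 20.5 and 21.1 FPKM in females and 11.2 and 17.2 FPKM in males, so the female level at 25–40 h was already below that of the oldest embryos. *Obp9*, an odorant-binding protein gene (chromosome 15, 6767786 to 6769920), had 8.04 and 9.12 FPKM in the female libraries, against 185 and 103 FPKM in the male libraries, a difference of −3.87 ± 0.39 (SE, adjusted p = 1.75e-04). *Baiap3* (chromosome 8, 4522164 to 4551173) had 1.65 and 0.962 FPKM in the female libraries, against 52.3 and 32.5 FPKM in the male libraries, a difference of −4.21 ± 0.33 (SE, adjusted p = 3.70e-05). Its locus overlaps that of *SP48*, a serine protease, so reads of the pair may not be separated. The loci of *Cyp314a1* and *Obp9* also overlap other loci, with the same limit. In each of these genes the lowest male value was at least several times the highest female value.

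Further deficits were seen in *Amci*, *CPR13* and *ced-6*, while *yl* and *Knr* are given with their gene groups. *Amci* had 21.8 and 27.0 FPKM in the female libraries, against 316 and 205 FPKM in the male libraries (difference −3.34 ± 0.46 SE, adjusted p = 8.24e-04). *CPR13*, a cuticle protein gene, had 1.34 and 2.09 FPKM in the female libraries, against 36.6 and 21.3 FPKM in the male libraries (difference −3.43 ± 0.80 SE, adjusted p = 0.0137). The *ced-6* gene, known in *Caenorhabditis elegans* for the engulfment of dying cells, had 6.15 and 5.51 FPKM in the female libraries, against 62.0 and 35.4 FPKM in the male libraries (difference −2.81 ± 0.39 SE, adjusted p = 8.96e-04). At 55–70 h *CPR13* had 432 and 261 FPKM in females and 2.49 and 38.1 FPKM in males. The call of *CPR13* was lost without the first female library (adjusted p = 0.0506), without the second female library (adjusted p = 0.0669), and without the first male library (adjusted p = 0.107).

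**Figure D3:**
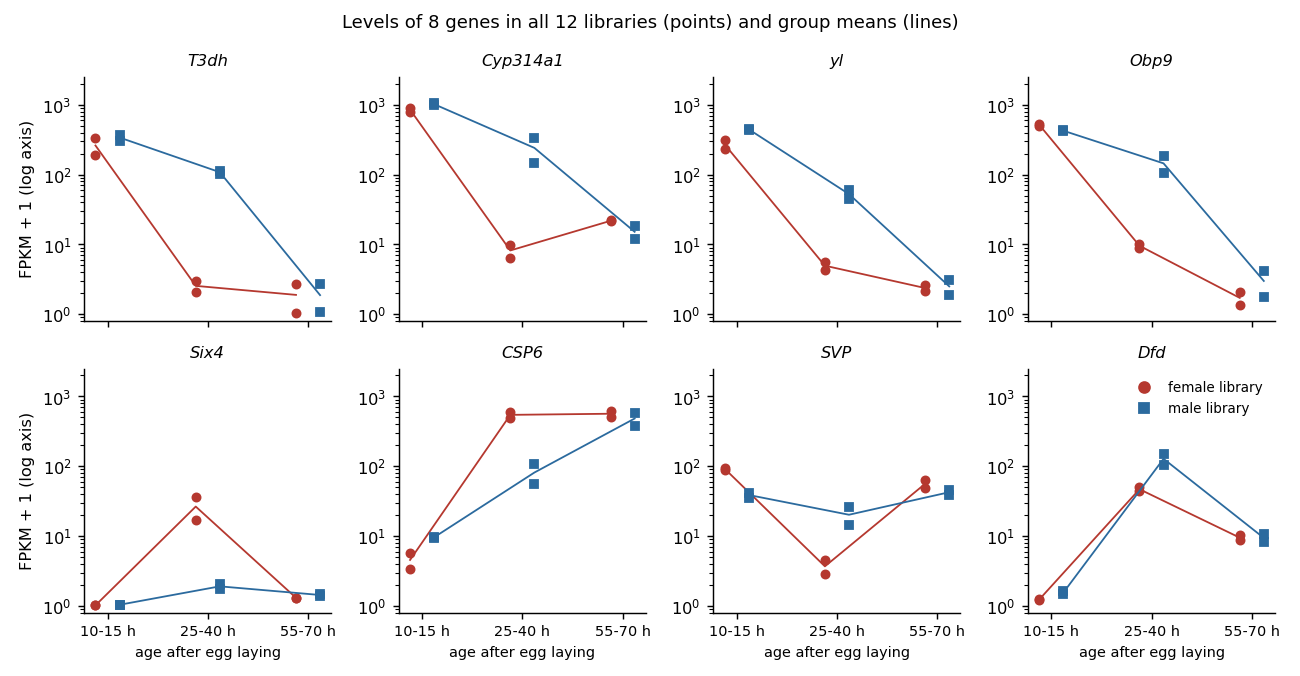
Levels of 8 genes (y axis, FPKM + 1, log axis) at the 3 ages (x axis) in all 12 libraries; circles and red lines are female, squares and blue lines male, and lines join group means. *T3dh*, *Cyp314a1*, *yl* and *Obp9* start high in both sexes and are lower in females at 25–40 h, while *Six4* is high only in the female libraries of that age and *Dfd* is higher in males.

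Genes of the germ line and of small RNA pathways were more often called lower than higher. Of this list, 1 of 21 loci was called higher and 5 lower in females, with a median of −0.17. Over all loci 9.31% were higher and 7.85% lower. In the list 8 loci fell with age, and of all 1986 loci that fell with age 26.3% were called lower in females. *mael*, which acts in the piRNA pathway of the *Drosophila* germ line, had 155 and 97.0 FPKM in the female libraries, against 2885 and 2504 FPKM in the male libraries, the highest male level of the list (chromosome 8, 9669249 to 9676379). Its difference was −4.44 ± 0.42 (SE, adjusted p = 1.75e-04). The locus had no valid estimate in males at 10–15 h, and an overlapping locus of the same symbol had 11.4 and 7.08 FPKM in females against 8.54 and 0.863 FPKM in males and was not called. *yl*, the vitellogenin receptor through which oocytes take up yolk (chromosome 1, 6625027 to 6637466), had 4.58 and 3.35 FPKM in the female libraries, against 59.3 and 44.2 FPKM in the male libraries (difference −3.41 ± 0.30 SE, adjusted p = 7.88e-05). *tj*, a transcription factor of the *Drosophila* gonad, had 0.717 and 0.410 FPKM in the female libraries, against 4.55 and 3.13 FPKM in the male libraries (difference −1.62 ± 0.27 SE, adjusted p = 0.00261). *vas*, an RNA helicase of germ cells, had 57.4 and 33.9 FPKM in the female libraries, against 104 and 95.9 FPKM in the male libraries (difference −1.16 ± 0.28 SE, adjusted p = 0.0155). Against this direction, *capu*, an actin nucleator of the *Drosophila* oocyte, had 7.86 and 10.4 FPKM in the female libraries, against 3.21 and 4.90 FPKM in the male libraries (difference 1.01 ± 0.26 SE, adjusted p = 0.023). The summed level of the list was 621 and 399 FPKM in females, against 3405 and 3023 FPKM in males, and without *mael* the other 20 loci summed to 466 and 302 FPKM in females, against 521 and 519 FPKM in males. In whole embryos, fewer cells of a type and less RNA per cell cannot be told apart. The call of *mael*, *yl* and *tj* held in every alternative run. In the fit of only the 4 libraries calls were lost for *vas* and *capu* (adjusted p 0.0799 to 0.159). Leaving out a library also ended calls, without the second female library for *vas* and *capu* (adjusted p 0.111 to 0.133), without the first male library for *vas* and *capu* (adjusted p 0.0936 to 0.164), and without the second male library for *vas* (adjusted p = 0.0559).

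Among the segment polarity genes, 3 of 7 loci were called higher and 0 lower in females, with a median of 0.02 that turned to −0.17 under TPM. *Ci*, the Gli transcription factor at the end of the Hedgehog pathway (chromosome 4, 1039768 to 1216334), had 43.3 and 55.0 FPKM in the female libraries, against 6.97 and 6.63 FPKM in the male libraries. The female libraries were several times the male ones, and the difference was 2.68 ± 0.27 (SE, adjusted p = 1.75e-04). *En*, the homeodomain protein of posterior segment compartments (chromosome 1, 19540600 to 19546326), had 49.2 and 93.2 FPKM in the female libraries, against 8.61 and 12.9 FPKM in the male libraries (difference 2.57 ± 0.34 SE, adjusted p = 6.12e-04). *fu*, a kinase of the Hedgehog pathway, had 50.2 and 40.7 FPKM in the female libraries, against 22.2 and 26.5 FPKM in the male libraries (difference 0.87 ± 0.23 SE, adjusted p = 0.0224). Other members were not called. *disp*, which releases Hedgehog from the cells that make it, had 7.32 and 6.69 FPKM in the female libraries, against 6.82 and 7.0 FPKM in the male libraries, and *smo*, the signal transducer, had 45.3 and 18.5 FPKM in the female libraries, against 39.7 and 54.0 FPKM in the male libraries. The calls of *Ci* and *En* held in every alternative. Without the other ages in the fit *fu* (adjusted p = 0.164) was not called, and the call was also lost without the first female library (adjusted p = 0.0585) and without the first male library (adjusted p = 0.138).

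In the Wnt pathway 8 of 24 loci were called higher and 4 lower in females, with a median of 0.03 that turned to −0.17 under TPM. Ligands were on both sides. *Wnt1*, the orthologue of *Drosophila* *wingless* (chromosome 1, 21360889 to 21373732), had 8.71 and 15.2 FPKM in the female libraries, against 1.31 and 1.51 FPKM in the male libraries (difference 2.38 ± 0.29 SE, adjusted p = 4.48e-04). *Wnt6* (chromosome 1, 21367919 to 21408307) had 11.9 and 22.9 FPKM in the female libraries, against 2.24 and 1.13 FPKM in the male libraries (difference 2.74 ± 0.32 SE, adjusted p = 3.51e-04), and *Wnt10* (chromosome 1, 21430658 to 21441999) had 7.52 and 13.8 FPKM in the female libraries, against 1.09 and 1.31 FPKM in the male libraries (difference 2.35 ± 0.37 SE, adjusted p = 0.00172). These 3 genes lie close together on chromosome 1, and the loci of *Wnt1* and *Wnt6* overlap, so reads in the shared stretch can be split between them. *Notum*, a secreted enzyme that inactivates Wnt ligands (chromosome 1, 25132744 to 25161963), had 24.4 and 66.1 FPKM in the female libraries, against 3.87 and 5.03 FPKM in the male libraries (difference 2.93 ± 0.39 SE, adjusted p = 7.02e-04). Outside the list, *Dnt*, a receptor of the Ryk family that binds Wnt ligands in *Drosophila* (chromosome 10, 8907996 to 8934013), had 161 and 223 FPKM in the female libraries, against 29.8 and 26.6 FPKM in the male libraries (difference 2.71 ± 0.23 SE, adjusted p = 7.39e-05).

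The Wnt members that were lower in females were *Wnt4*, *Wnt5*, *nmo* and *sgg*. *Wnt4* (chromosome 1, 12674423 to 12678496) had 1.23 and 0.732 FPKM in the female libraries, against 4.48 and 5.04 FPKM in the male libraries (difference −1.55 ± 0.25 SE, adjusted p = 0.00196). A longer overlapping *Wnt4* locus had 6.01 and 7.38 FPKM in females against 7.92 and 7.08 FPKM in males and was not called. *Wnt5*, in a locus joined with another gene, had 32.7 and 23.0 FPKM in the female libraries, against 85.1 and 57.4 FPKM in the male libraries (difference −1.32 ± 0.27 SE, adjusted p = 0.00664). The kinase gene *nmo* had 59.8 and 38.6 FPKM in the female libraries, against 138 and 136 FPKM in the male libraries (difference −1.49 ± 0.26 SE, adjusted p = 0.00311), while an overlapping locus of the same symbol was not called and had a difference of 0.81. *sgg*, the GSK3 kinase that marks beta-catenin for degradation, had 43.9 and 32.7 FPKM in the female libraries, against 64.3 and 67.2 FPKM in the male libraries in a joined locus (difference −0.78 ± 0.20 SE, adjusted p = 0.0228). All 4 also fell between 10–15 h and 55–70 h. In the 4-library fit calls were lost for *Wnt5* and *sgg* (adjusted p 0.0599 to 0.197), and calls were also lost without the second female library for *Wnt5* and *sgg* (adjusted p 0.0518 to 0.121), without the first male library for *Wnt5* and *sgg* (adjusted p 0.0713 to 0.0889), and without the second male library for *sgg* (adjusted p = 0.094).

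Hox genes were called in both directions. Of this list, 3 of 8 loci were called higher and 1 lower in females, with a median of 0.47. *lab*, the most anterior Hox gene (chromosome 16, 2215239 to 2233490), had 7.55 and 12.1 FPKM in the female libraries, against 0.713 and 0.841 FPKM in the male libraries (difference 2.57 ± 0.40 SE, adjusted p = 0.00163). *Abd-A*, an abdominal Hox gene (chromosome 16, 3156193 to 3200631), had 13.6 and 10.7 FPKM in the female libraries, against 1.96 and 4.11 FPKM in the male libraries (difference 1.75 ± 0.35 SE, adjusted p = 0.00637). *Ubx*, which sets the identity of posterior thorax and anterior abdomen, had 47.8 and 51.8 FPKM in the female libraries, against 18.9 and 25.6 FPKM in the male libraries in a locus joined with another gene (difference 1.14 ± 0.25 SE, adjusted p = 0.00964). The only Hox gene called lower in females was *Dfd*, a gene of the head segments (chromosome 16, 2438070 to 2448878), with 49.1 and 42.6 FPKM in the female libraries, against 103 and 151 FPKM in the male libraries (difference −1.43 ± 0.26 SE, adjusted p = 0.00428). *Dfd* was at its highest at 25–40 h in both sexes, since it had 0.222 and 0.239 FPKM in females and 0.468 and 0.615 FPKM in males at 10–15 h and 9.32 and 7.64 FPKM in females and 9.53 and 7.27 FPKM in males at 55–70 h. *Scr*, of the labial and first thoracic segments, had 14.8 and 13.7 FPKM in the female libraries, against 10.3 and 14.0 FPKM in the male libraries and was not called. The fit of only the 4 libraries did not call *Ubx* (adjusted p = 0.0773), and further losses came without the second female library for *Ubx* (adjusted p = 0.0518) and without the first male library for *Ubx* and *Abd-A* (adjusted p 0.0693 to 0.089).

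Pair-rule genes were measured with 4 loci, of which 1 was called in each direction. *slp*, a forkhead gene that acts late in the cascade (chromosome 4, 11550083 to 11552619), had 103 and 149 FPKM in the female libraries, against 40.6 and 36.0 FPKM in the male libraries (difference 1.67 ± 0.26 SE, adjusted p = 0.00167). *eve*, an early pair-rule gene (chromosome 14, 704266 to 711199), had 96.0 and 82.9 FPKM in the female libraries, against 260.4 and 236 FPKM in the male libraries (difference −1.46 ± 0.25 SE, adjusted p = 0.00306). The groups were apart in both genes and in opposite directions. *Prd* had 37.2 and 21.0 FPKM in the female libraries, against 18.0 and 28.2 FPKM in the male libraries, with overlapping groups, and the locus called *h* in the files had 143 and 148 FPKM in the female libraries, against 127 and 126 FPKM in the male libraries.

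The gap, head gap and terminal genes were more often called lower than higher in females: 1 of 10 loci was called higher and 5 lower, with a median of −1.20 against −0.04 over all loci. Over all loci 9.31% were called higher and 7.85% lower. Both of the overlapping loci of *cad* were called lower, so this gene is counted 2 times among the 5. *Knr*, placed with the knirps family of gap genes by its symbol alone (chromosome 10, 1308362 to 1325714), had 2.31 and 1.90 FPKM in the female libraries, against 43.2 and 24.4 FPKM in the male libraries (difference −3.43 ± 0.28 SE, adjusted p = 6.24e-05). The larger of 2 overlapping loci of *cad*, the posterior homeobox gene (chromosome 1, 8929952 to 8943547), had 236 and 110.4 FPKM in the female libraries, against 723 and 487 FPKM in the male libraries (difference −1.87 ± 0.38 SE, adjusted p = 0.00667). *oc*, the orthodenticle gene of the head (chromosome 1, 21744659 to 21788542), had 72.6 and 28.8 FPKM in the female libraries, against 165 and 136 FPKM in the male libraries (difference −1.69 ± 0.35 SE, adjusted p = 0.00786). *ems*, a head gap gene that later marks other tissues, was the exception with 16.2 and 25.2 FPKM in the female libraries, against 4.41 and 9.91 FPKM in the male libraries (difference 1.47 ± 0.34 SE, adjusted p = 0.0126). *Kr* had 37.2 and 23.5 FPKM in the female libraries, against 52.2 and 37.8 FPKM in the male libraries and *Tll* had 7.61 and 7.37 FPKM in the female libraries, against 9.08 and 8.56 FPKM in the male libraries, neither of them called. Under the 4-library fit 3 members were called lower and 0 higher, and *ems* (adjusted p = 0.0832) was not called. Leaving out single libraries ended calls without the second female library for *cad* and *ems* (adjusted p 0.0583 to 0.104) and without the first male library for *cad*, *oc* and *ems* (adjusted p 0.0698 to 0.112).

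**Figure D4:**
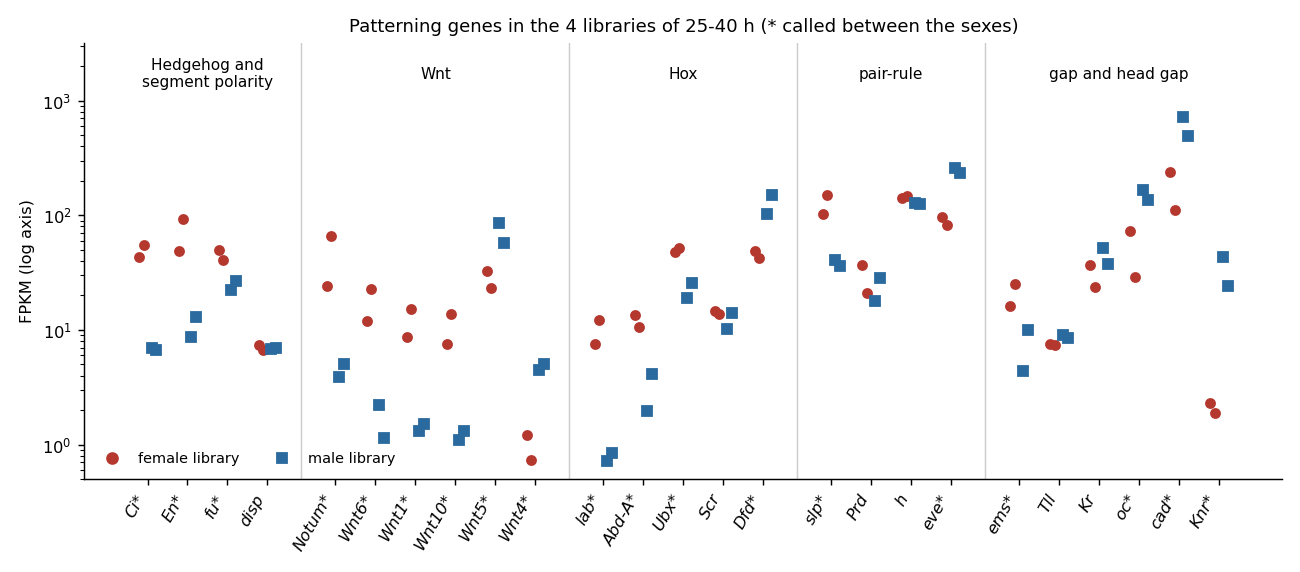
FPKM (y axis, log axis) of patterning genes in the 4 libraries of 25–40 h (x axis, genes grouped by class); circles are female and squares male libraries, and an asterisk marks genes called between the sexes. *Ci*, *En*, *Notum*, *Wnt6*, *Wnt1*, *Wnt10* and *lab* lie higher in females, and *Wnt4*, *Dfd*, *eve*, *oc*, *cad* and *Knr* lie lower.

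*Six4* had the largest excess in females of all named genes that were above 0 in every library. This homeobox gene of *Drosophila* mesoderm (chromosome 1, 15461589 to 15469002) had 16.1 and 34.8 FPKM in the female libraries, against 0.753 and 1.05 FPKM in the male libraries. It was near 0 at the other ages, with 0.0213 and 0.0111 FPKM in females and 0.0389 and 0.0314 FPKM in males at 10–15 h and 0.310 and 0.295 FPKM in females and 0.377 and 0.483 FPKM in males at 55–70 h. The difference was 3.71 ± 0.32 (SE, adjusted p = 6.81e-05). *eya* (chromosome 1, 5315622 to 5332487), a protein phosphatase and transcriptional partner of such homeobox proteins, had 45.3 and 50.9 FPKM in the female libraries, against 6.73 and 11.5 FPKM in the male libraries (difference 2.32 ± 0.30 SE, adjusted p = 5.32e-04). Of the dorsoventral and mesoderm list, 4 of 15 loci were called higher and 1 lower, with a median of 0.44. *pnr*, a GATA factor of dorsal tissue and heart, had 8.69 and 12.1 FPKM in the female libraries, against 3.82 and 3.59 FPKM in the male libraries (difference 1.26 ± 0.27 SE, adjusted p = 0.00903). *tok*, a metalloprotease that releases Dpp from its inhibitor, had 8.54 and 10.6 FPKM in the female libraries, against 4.24 and 3.21 FPKM in the male libraries (difference 1.16 ± 0.25 SE, adjusted p = 0.00831). *sog*, that inhibitor, had 21.6 and 13.5 FPKM in the female libraries, against 31.5 and 32.5 FPKM in the male libraries in a locus joined with other genes (difference −0.86 ± 0.26 SE, adjusted p = 0.0398), so the antagonist and its protease lay on opposite sides. The 4-library fit did not call *pnr*, *tok* and *sog* (adjusted p 0.0763 to 0.203), and their calls were also lost without the second female library for *pnr*, *tok* and *sog* (adjusted p 0.0542 to 0.219), without the first male library for *pnr* and *sog* (adjusted p 0.0527 to 0.136), and without the second male library for *tok* and *sog* (adjusted p 0.0589 to 0.139).

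Genes of muscle structure were measured with 14 loci, of which 2 were higher and 1 lower in females. *TpnCI*, a troponin C, had 55.3 and 82.2 FPKM in the female libraries, against 16.2 and 19.0 FPKM in the male libraries in a joined locus (difference 1.89 ± 0.35 SE, adjusted p = 0.0041). *Mf*, a protein of the contractile apparatus, had 5.61 and 5.34 FPKM in the female libraries, against 0.589 and 1.28 FPKM in the male libraries (difference 1.77 ± 0.27 SE, adjusted p = 0.00148). Both rose between 10–15 h and 55–70 h, by 5.40 and 4.54 on the log2 scale. *Lmpt*, a LIM domain protein of muscle, had 77.2 and 41.9 FPKM in the female libraries, against 119.9 and 101 FPKM in the male libraries in a joined locus (difference −0.94 ± 0.28 SE, adjusted p = 0.0434), and the 4-library fit did not call *Lmpt* (adjusted p = 0.164). The call was also lost without the second female library (adjusted p = 0.267), without the first male library (adjusted p = 0.199), and without the second male library (adjusted p = 0.0917). The summed level of the list was 893 and 939 FPKM in females, against 780.4 and 722 FPKM in males.

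Of 21 loci of the Notch pathway, 2 were higher and 3 lower in females, while 9.31% were higher and 7.85% lower over all loci. The calls included a ligand, the receptor and a modifier. *Ser*, a ligand of Notch in a locus joined with another gene (chromosome 5, 8488728 to 8592501), had 4.84 and 4.83 FPKM in the female libraries, against 44.7 and 26.0 FPKM in the male libraries, the largest deficit of the pathway (difference −2.59 ± 0.27 SE, adjusted p = 1.97e-04). *N*, the receptor, had 5.95 and 10.5 FPKM in the female libraries, against 2.08 and 2.28 FPKM in the male libraries (difference 1.5 ± 0.27 SE, adjusted p = 0.00402). A short *N* locus inside it had a difference of 0.94 and was not called. *fng*, a glycosyltransferase that decides which ligand Notch responds to (chromosome 11, 12987209 to 13054424), had 19.7 and 25.1 FPKM in the female libraries, against 3.91 and 4.83 FPKM in the male libraries (difference 2.12 ± 0.26 SE, adjusted p = 4.70e-04). A short locus of the same name inside it had 2.36 and 1.09 FPKM in the female libraries, against 5.94 and 4.66 FPKM in the male libraries (difference −1.24 ± 0.27 SE, adjusted p = 0.00973), so the loci of *fng* went opposite ways. *bib*, a membrane channel protein of neurogenesis, had 9.85 and 8.96 FPKM in the female libraries, against 42.0 and 27.2 FPKM in the male libraries (difference −1.74 ± 0.38 SE, adjusted p = 0.00975), but a longer overlapping *bib* locus had 146 and 189 FPKM in females against 139 and 109.9 FPKM in males and was not called. Calls were lost in the 4-library fit for *N* and the short *fng* locus (adjusted p 0.0542 to 0.0937), and without the second female library for the short *fng* locus and *bib* (adjusted p 0.0645 to 0.0683) and without the first male library for the short *fng* locus and *bib* (adjusted p 0.0746 to 0.0942).

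Signalling through Dpp and BMP proteins had 4 loci higher and 3 lower of 16. *gbb*, a BMP ligand, had 4.85 and 5.03 FPKM in the female libraries, against 1.01 and 0.825 FPKM in the male libraries (difference 1.63 ± 0.24 SE, adjusted p = 0.00108). *Mad*, the transcription factor activated by BMP receptors, is listed at loci on chromosomes 4 and 15 that differed in opposite directions. The locus on chromosome 15 had 4.72 and 5.0 FPKM in the female libraries, against 1.09 and 1.70 FPKM in the male libraries (difference 1.30 ± 0.30 SE, adjusted p = 0.0129), and that on chromosome 4 had 23.2 and 14.0 FPKM in the female libraries, against 39.3 and 34.8 FPKM in the male libraries (difference −1.0 ± 0.31 SE, adjusted p = 0.0464). *babo*, an activin-type receptor, had 54.7 and 69.2 FPKM in the female libraries, against 141 and 108 FPKM in the male libraries in a locus joined with other genes (difference −1.0 ± 0.26 SE, adjusted p = 0.0223). The 4-library fit did not call *Mad* on chromosome 15, *Mad* on chromosome 4 and *babo* (adjusted p 0.062 to 0.148). Losses when a library was left out occurred without the first female library for *babo* (adjusted p = 0.0733), without the second female library for *Mad* on chromosome 15 and *Mad* on chromosome 4 (adjusted p 0.0696 to 0.271), without the first male library for *Mad* on chromosome 15, *Mad* on chromosome 4 and *babo* (adjusted p 0.103 to 0.191), and without the second male library for *Mad* on chromosome 4 (adjusted p = 0.114).

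In EGF, FGF and MAP kinase signalling 1 of 11 loci was called higher and 3 lower in females. *pnt*, the ETS transcription factor at the end of the cascade (chromosome 10, 8428247 to 8546849), had 14.8 and 20.3 FPKM in the female libraries, against 2.22 and 2.79 FPKM in the male libraries (difference 2.40 ± 0.26 SE, adjusted p = 2.81e-04). Upstream members lay on the other side. The adaptor *dos* had 17.8 and 15.2 FPKM in the female libraries, against 51.3 and 46.8 FPKM in the male libraries in a joined locus (difference −1.52 ± 0.28 SE, adjusted p = 0.0042). *rl*, the MAP kinase itself, had 77.6 and 48.8 FPKM in the female libraries, against 134 and 107 FPKM in the male libraries, also in a joined locus (difference −0.95 ± 0.27 SE, adjusted p = 0.0333). Calls of the 4-library fit left out *rl* (adjusted p = 0.133), and its call was also lost without the second female library (adjusted p = 0.212), without the first male library (adjusted p = 0.184), and without the second male library (adjusted p = 0.0632). *Toll-10*, of the Toll receptor family, had 20.9 and 29.9 FPKM in the female libraries, against 6.93 and 8.06 FPKM in the male libraries (difference 1.62 ± 0.28 SE, adjusted p = 0.00312) and was the only one called of 10 loci in that pathway.

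Regulators of neural fate were called on both sides, 2 higher and 2 lower of 12. *SVP*, the orphan nuclear receptor seven-up (chromosome 6, 15508906 to 15592814), had 1.89 and 3.47 FPKM in the female libraries, against 25.1 and 13.3 FPKM in the male libraries (difference −2.43 ± 0.32 SE, adjusted p = 6.59e-04). At the other ages it was high in both sexes, with 88.5 and 94.1 FPKM in females and 34.5 and 41.0 FPKM in males at 10–15 h and 62.2 and 48.1 FPKM in females and 37.8 and 45.2 FPKM in males at 55–70 h, so 25–40 h was a low point and females were lowest. *Rx*, a homeobox gene of the head, had 4.19 and 5.69 FPKM in the female libraries, against 0.545 and 0.651 FPKM in the male libraries (difference 1.88 ± 0.23 SE, adjusted p = 3.96e-04). *Eg*, a nuclear receptor of neuroblast lineages, had 87.5 and 42.0 FPKM in the female libraries, against 219 and 169 FPKM in the male libraries in a locus joined with other genes (difference −1.65 ± 0.34 SE, adjusted p = 0.00771). The bHLH gene *tap* had 7.05 and 6.57 FPKM in the female libraries, against 1.70 and 2.99 FPKM in the male libraries (difference 1.25 ± 0.26 SE, adjusted p = 0.00747), and the 4-library fit did not call *tap* (adjusted p = 0.0827). Single libraries ended further calls, without the second female library for *Eg* (adjusted p = 0.058) and without the first male library for *tap* and *Eg* (adjusted p = 0.0739 each).

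Of 23 loci for cell adhesion and axon guidance, 7 were higher and 2 lower in females, with a median of 0.31. The integrin *if* (chromosome 13, 8286545 to 8453628) had 33.6 and 45.2 FPKM in the female libraries, against 5.01 and 12 FPKM in the male libraries (difference 2.18 ± 0.35 SE, adjusted p = 0.00184). *Dscam*, a receptor of axon guidance and immunity (chromosome 4, 9798316 to 9854880), had 23.2 and 27.6 FPKM in the female libraries, against 5.64 and 8.66 FPKM in the male libraries (difference 1.72 ± 0.30 SE, adjusted p = 0.00302). The adhesion protein *Fas3* had 34.7 and 39.3 FPKM in the female libraries, against 13 and 11 FPKM in the male libraries in a joined locus (difference 1.55 ± 0.22 SE, adjusted p = 9.64e-04), and the ephrin receptor *EphR* had 35.1 and 28.8 FPKM in the female libraries, against 9.35 and 12.9 FPKM in the male libraries (difference 1.45 ± 0.27 SE, adjusted p = 0.00418). This *EphR* locus overlaps *RpL34* and another *EphR* locus. The latter had 22.8 and 22.7 FPKM in females against 5.39 and 20.4 FPKM in males and was not called. *kek2*, a transmembrane protein with leucine-rich repeats, was lower with 2.66 and 1.49 FPKM in the female libraries, against 10.5 and 8.07 FPKM in the male libraries in a joined locus (difference −1.76 ± 0.30 SE, adjusted p = 0.00273), and so was *Con*, an adhesion protein of motor axons, with 0.711 and 1.32 FPKM in the female libraries, against 3.46 and 3.54 FPKM in the male libraries (difference −1.17 ± 0.26 SE, adjusted p = 0.00975). *IGFn3-5*, of the immunoglobulin superfamily (chromosome 4, 9350084 to 9379312), is outside the list and had 35.3 and 55.3 FPKM in the female libraries, against 5.23 and 4.10 FPKM in the male libraries (difference 3.0 ± 0.35 SE, adjusted p = 3.36e-04). A second locus of *IGFn3-5* inside it was also higher, by 2.16. Fitting only the 4 libraries left *Con* (adjusted p = 0.0833) uncalled, and the call was also lost without the first male library (adjusted p = 0.0546). An overlapping *Con* locus had higher levels, with 35.3 FPKM in the first female library and 43.8 FPKM in the first male library. Its estimate failed in the second library of each sex, so it was not tested.

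Of 29 loci for synaptic proteins and receptors 3 were called in each direction, near the shares of 9.31% higher and 7.85% lower over all loci. The 3 higher loci were nicotinic acetylcholine receptor subunits. *nAChRa9* had 20.5 and 39.4 FPKM in the female libraries, against 6.86 and 9.11 FPKM in the male libraries (difference 1.72 ± 0.39 SE, adjusted p = 0.0116), *nAChRa3* had 15.3 and 21.0 FPKM in the female libraries, against 6.10 and 4.62 FPKM in the male libraries (difference 1.58 ± 0.37 SE, adjusted p = 0.0129), and *nAChRa2* had 3.67 and 5.55 FPKM in the female libraries, against 1.10 and 0.876 FPKM in the male libraries (difference 1.48 ± 0.25 SE, adjusted p = 0.0029). *Rdl*, the GABA receptor, was lower with 0.177 and 0.117 FPKM in the female libraries, against 2.14 and 1.87 FPKM in the male libraries (difference −1.39 ± 0.30 SE, adjusted p = 0.00936). *Syt1* had 0.816 and 0.120 FPKM in the female libraries, against 2.11 and 1.99 FPKM in the male libraries (difference −1.10 ± 0.28 SE, adjusted p = 0.0196), and *Nrx-1* had 0.658 and 0.798 FPKM in the female libraries, against 2.88 and 2.12 FPKM in the male libraries (difference −1.01 ± 0.25 SE, adjusted p = 0.0215). These lower members were below 3 FPKM in all 4 libraries. Other overlapping loci of *Rdl* and *Syt1* did not reach a mean of 1 FPKM and were not tested. That of *Syt1* had 0.974 and 0.695 FPKM in females against 1.42 and 0.865 FPKM in males. The 4-library fit did not call *Syt1* and *Nrx-1* (adjusted p 0.112 to 0.117), and further calls were lost without the second female library for *nAChRa9*, *nAChRa3*, *Rdl*, *Syt1* and *Nrx-1* (adjusted p 0.0538 to 0.129), without the first male library for *nAChRa9*, *nAChRa3*, *Rdl*, *Syt1* and *Nrx-1* (adjusted p 0.0517 to 0.133), and without the second male library for *nAChRa3* and *Syt1* (adjusted p 0.0641 to 0.0819).

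Of 10 eye loci *Six4* and *eya* were higher in females and 2 were lower. The channel gene *TRP* had 2.97 and 1.48 FPKM in the female libraries, against 7.43 and 10.1 FPKM in the male libraries (difference −1.62 ± 0.32 SE, adjusted p = 0.00602), and *inaE*, a lipase of phototransduction in *Drosophila*, had 6.08 and 5.70 FPKM in the female libraries, against 14.3 and 9.79 FPKM in the male libraries (difference −0.90 ± 0.27 SE, adjusted p = 0.0397). With only the 4 libraries *inaE* (adjusted p = 0.196) was not called, and calls were also lost without the first female library for *inaE* (adjusted p = 0.0574), without the second female library for *TRP* and *inaE* (adjusted p 0.0538 to 0.139), and without the first male library for *inaE* (adjusted p = 0.237).

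Cytosolic ribosomal protein genes had the largest share of called loci among the lists. Females had higher levels at 48 of 55 loci and lower levels at 0 by limma, with 53 higher and 0 lower at an unadjusted p under 0.05. The median difference was 1.09, and the libraries did not overlap at 54 loci. *RpL32* (chromosome 11, 8182604 to 8183503) had 2657 and 1573 FPKM in the female libraries, against 626 and 617 FPKM in the male libraries (difference 1.72 ± 0.29 SE, adjusted p = 0.00289). *RpL24* had 2521 and 2038 FPKM in the female libraries, against 733 and 824 FPKM in the male libraries (difference 1.54 ± 0.24 SE, adjusted p = 0.00172). *RpL29* had 764 and 349 FPKM in the female libraries, against 163 and 153 FPKM in the male libraries (difference 1.70 ± 0.37 SE, adjusted p = 0.0092), and its call was lost without the first male library (adjusted p = 0.0567) and without the second male library (adjusted p = 0.0519). All 55 loci also rose with age. The list took 23.1% and 27.9% of all FPKM in females, against 13.1% and 15.4% in males. At 47 of the 48 called loci the FPKM of at least 1 library lay outside its own deposited bounds. The count was 40 higher in the 4-library fit, 27 after quantile normalization and 47 under TPM. Quantile normalization also lowered the median difference to 0.54.

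**Figure D5:**
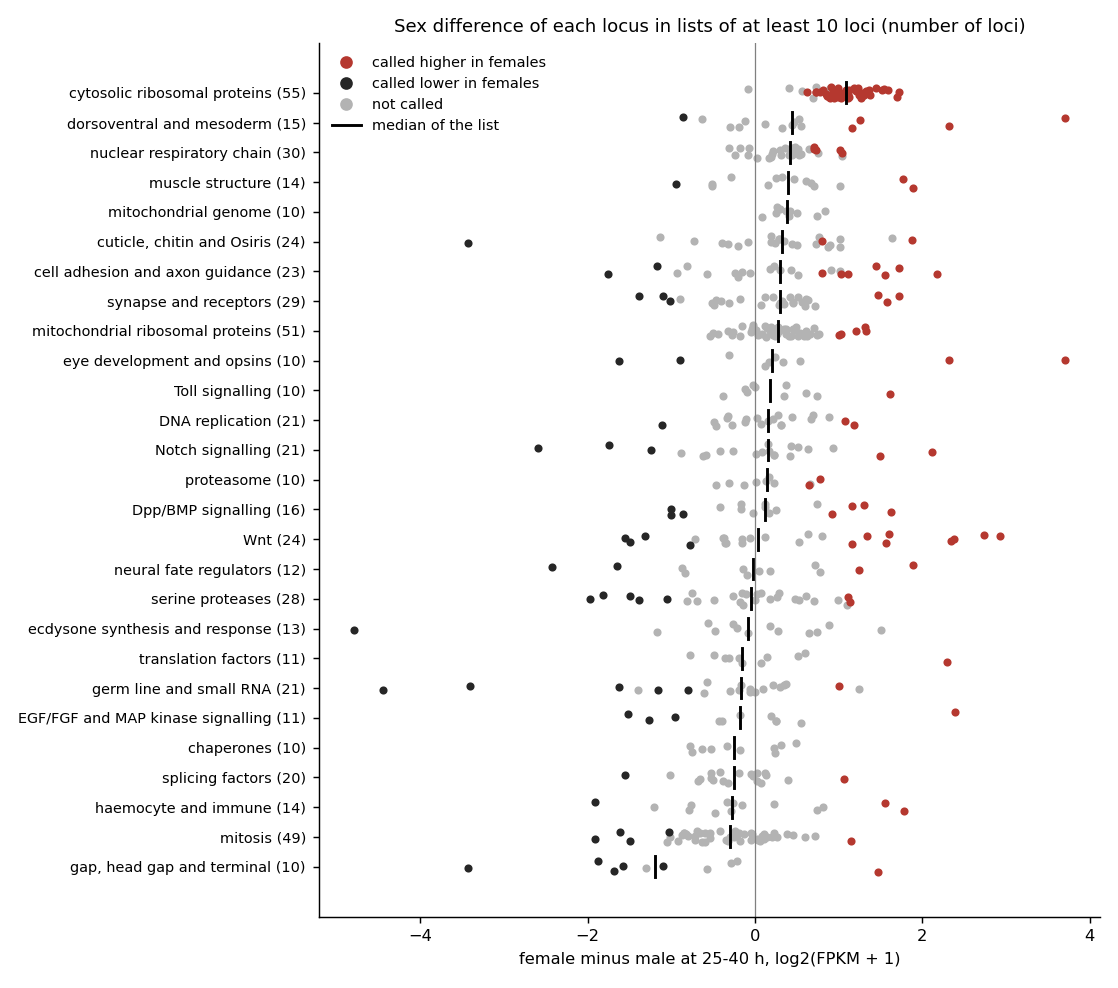
Female minus male difference at 25–40 h (x axis, log2(FPKM + 1)) of every locus in gene lists with at least 10 loci (y axis, number of loci in parentheses); red points were called higher and black points lower in females, grey points were not called, and the vertical tick is the median of the list. The ribosomal protein list has a median of 1.09 (0.54 after quantile normalization) and the gap gene list a median of −1.20, while all other medians lie between −0.5 and 0.5.

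Other lists of translation and energy metabolism had smaller medians. Of 51 mitochondrial ribosomal protein loci 5 were higher and none lower, while 9.31% were higher and 7.85% lower over all loci. The share higher was thus near that of all loci. The median of the list was 0.28, and 0.07 under TPM, where 1 locus was called lower. *mRpL2* had 79.2 and 106 FPKM in the female libraries, against 38.4 and 33.4 FPKM in the male libraries (difference 1.33 ± 0.24 SE, adjusted p = 0.00354). *mRpL51* had 121 and 117 FPKM in the female libraries, against 42.0 and 52.8 FPKM in the male libraries (difference 1.32 ± 0.21 SE, adjusted p = 0.00169). Nuclear genes of the respiratory chain had 5 of 30 loci higher and none lower, with a median of 0.42 and 1 called in the 4-library fit. *Cox6c*, a subunit of cytochrome oxidase, had 5104 and 5138 FPKM in the female libraries, against 3145 and 3137 FPKM in the male libraries (difference 0.70 ± 0.18 SE, adjusted p = 0.019). The call of *Cox6c* was lost without the first female library (adjusted p = 0.057), without the second female library (adjusted p = 0.112), without the first male library (adjusted p = 0.091), and without the second male library (adjusted p = 0.0745), and after quantile normalization (adjusted p = 0.129). None of the 10 loci of the mitochondrial genome was called by limma in either fit, and 0 had an unadjusted p under 0.05. *COX1* had 4509 and 7616 FPKM in the female libraries, against 4262 and 5683 FPKM in the male libraries, with overlapping groups. Of 11 translation factor loci *Ef-1a-f1*, a form of elongation factor 1-alpha (chromosome 12, 9208334 to 9217125), was called, with 30.1 and 47.3 FPKM in the female libraries, against 7.01 and 6.76 FPKM in the male libraries (difference 2.30 ± 0.28 SE, adjusted p = 4.17e-04). Among 10 proteasome loci 2 were higher, *Pros26* with 1004 and 1103 FPKM in the female libraries, against 609 and 617 FPKM in the male libraries (difference 0.78 ± 0.19 SE, adjusted p = 0.0155) and *Pros25*, and neither was called by the 4-library fit. These calls were also lost without the first female library for *Pros25* (adjusted p = 0.0551), without the second female library for *Pros26* and *Pros25* (adjusted p 0.0855 to 0.15), without the first male library for *Pros26* and *Pros25* (adjusted p 0.0822 to 0.2), and without the second male library for *Pros26* and *Pros25* (adjusted p 0.0608 to 0.0825). Of 10 chaperone loci 0 were called by limma in either fit, and 2 were lower at an unadjusted p under 0.05. Under TPM 2 loci were called lower.

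DNA replication and mitosis genes were called in both directions. In replication 2 of 21 loci were called higher and 1 lower in females, near the shares of 9.31% higher and 7.85% lower over all loci. *Mcm7*, of the replicative helicase, had 35.5 and 28.3 FPKM in the female libraries, against 13.8 and 13 FPKM in the male libraries (difference 1.18 ± 0.24 SE, adjusted p = 0.00733). *Psf2*, of the GINS complex, had 83.5 and 77.0 FPKM in the female libraries, against 44.4 and 31.9 FPKM in the male libraries (difference 1.07 ± 0.23 SE, adjusted p = 0.00975). *RfC4*, of the clamp loader, had 64.2 and 34.2 FPKM in the female libraries, against 95.9 and 110.0 FPKM in the male libraries (difference −1.11 ± 0.30 SE, adjusted p = 0.0254). With only the 4 libraries no call was made for *Mcm7*, *Psf2* and *RfC4* (adjusted p 0.0731 to 0.107). In mitosis 1 of 49 loci was called higher and 4 lower, with a median of −0.29. *cnn*, a centrosome protein, had 138 and 48.1 FPKM in the female libraries, against 257 and 246 FPKM in the male libraries (difference −1.61 ± 0.39 SE, adjusted p = 0.0154). *kinesin-8* had 8.16 and 2.79 FPKM in the female libraries, against 15.6 and 28.9 FPKM in the male libraries (difference −1.92 ± 0.47 SE, adjusted p = 0.0177), *mud*, which orients the spindle, had 1.10 and 0.315 FPKM in the female libraries, against 3.99 and 3.42 FPKM in the male libraries (difference −1.5 ± 0.30 SE, adjusted p = 0.00672), and *kinesin-2C* had 1.36 and 0.716 FPKM in the female libraries, against 3.28 and 2.95 FPKM in the male libraries (difference −1.03 ± 0.30 SE, adjusted p = 0.0345). On the log2 scale the female libraries lay farther from each other than the male libraries at both *cnn* and *kinesin-8*. Of the mitosis calls the 4-library fit kept only that of *mud*. Calls were also lost without the second female library for *RfC4*, *cnn*, *kinesin-8*, *mud* and *kinesin-2C* (adjusted p 0.0518 to 0.194), without the first male library for *RfC4*, *cnn* and *kinesin-2C* (adjusted p 0.0876 to 0.146), and without the second male library for *Psf2*, *RfC4*, *cnn*, *kinesin-8* and *kinesin-2C* (adjusted p 0.0643 to 0.131). Splicing factors had 1 call in each direction of 20 loci, *U2A*, in a joined locus, with 313 and 337 FPKM in the female libraries, against 139.9 and 172 FPKM in the male libraries (difference 1.06 ± 0.22 SE, adjusted p = 0.00786) and *Bcas2* with 142 and 60.6 FPKM in the female libraries, against 258 and 292 FPKM in the male libraries (difference −1.55 ± 0.34 SE, adjusted p = 0.00954). These calls were lost without the second female library for *Bcas2* (adjusted p = 0.0532), without the first male library for *U2A* and *Bcas2* (adjusted p 0.0513 to 0.0737), and without the second male library for *Bcas2* (adjusted p = 0.0588).

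*Mtp* and *Rfabg*, genes of lipid transport, were higher in females. *Mtp* (chromosome 13, 9162010 to 9173774), the transfer protein that loads lipids onto lipoproteins, had 55.0 and 106 FPKM in the female libraries, against 9.70 and 10.1 FPKM in the male libraries (difference 2.83 ± 0.33 SE, adjusted p = 3.51e-04). *Rfabg* (chromosome 8, 5154971 to 5192677), the precursor of the lipophorin apolipoproteins, had 14.8 and 36.6 FPKM in the female libraries, against 1.47 and 5.24 FPKM in the male libraries in a locus joined with another gene (difference 2.64 ± 0.46 SE, adjusted p = 0.00311). At 55–70 h *Rfabg* had 686 and 709.9 FPKM in females and 1355 and 861 FPKM in males. The storage protein *Hex70c* was lower, with 3.87 and 2.69 FPKM in the female libraries, against 13.7 and 10.7 FPKM in the male libraries (difference −1.63 ± 0.33 SE, adjusted p = 0.00655), and its call was lost without the second female library (adjusted p = 0.0538) and without the first male library (adjusted p = 0.0634). The other 3 storage protein loci tested were not called. *CSP6*, a chemosensory protein gene (chromosome 1, 27117958 to 27119833), had 598 and 490.4 FPKM in the female libraries, against 54.2 and 106 FPKM in the male libraries (difference 2.82 ± 0.35 SE, adjusted p = 4.98e-04). *CYP6AS4*, a cytochrome P450 of a bee-specific group (chromosome 13, 9573884 to 9576820), had 13.4 and 16.3 FPKM in the female libraries, against 1.30 and 1.95 FPKM in the male libraries (difference 2.60 ± 0.37 SE, adjusted p = 9.42e-04). Apart from *Cyp314a1*, none of 13 loci of ecdysone synthesis and response was called in the fit of 12. The 4-library fit also called *CYP18A1*, a P450 that inactivates ecdysteroids in *Drosophila*, with 7.63 and 11 FPKM in the female libraries, against 3.02 and 2.21 FPKM in the male libraries (difference 1.5, adjusted p = 0.0474).

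In the list of cuticle and chitin genes 2 of 24 loci were higher and 1, *CPR13*, was lower. *verm*, a chitin deacetylase, had 9.18 and 17.3 FPKM in the female libraries, against 2.63 and 2.77 FPKM in the male libraries (difference 1.88 ± 0.43 SE, adjusted p = 0.0124). By 55–70 h *verm* had 538 and 267 FPKM in females and 244 and 564 FPKM in males. *CPF2*, a cuticle protein gene, had 2.07 and 2.52 FPKM in the female libraries, against 0.971 and 0.821 FPKM in the male libraries (difference 0.80 ± 0.22 SE, adjusted p = 0.0303), and the 4-library fit did not call *CPF2* (adjusted p = 0.207). Serine proteases and their inactive homologues had 2 of 28 loci higher and 5 lower. *SP1* (chromosome 5, 14103627 to 14106512) had 23.3 and 13.6 FPKM in the female libraries, against 77.8 and 68.5 FPKM in the male libraries (difference −1.97 ± 0.29 SE, adjusted p = 0.00108). *SP7* had 51.0 and 37.3 FPKM in the female libraries, against 140.2 and 112 FPKM in the male libraries (difference −1.5 ± 0.32 SE, adjusted p = 0.00903) although it rose by 5.33 between 10–15 h and 55–70 h. Markers of haemocytes and immunity had 2 of 14 loci higher and 1 lower, and their summed level was 116 and 102 FPKM in females against 98.0 and 106 FPKM in males. *PGRP-S3*, a peptidoglycan recognition protein, had 8.02 and 9.46 FPKM in the female libraries, against 1.44 and 2.27 FPKM in the male libraries (difference 1.78 ± 0.27 SE, adjusted p = 0.00124). *Apid1*, an antimicrobial peptide, had 0.0375 and 0.0927 FPKM in the female libraries, against 4.48 and 1.93 FPKM in the male libraries (difference −1.91 ± 0.31 SE, adjusted p = 0.00213). Calls were lost without the second female library for *verm*, *CPF2* and *SP7* (adjusted p 0.0732 to 0.111), without the first male library for *verm*, *CPF2* and *SP7* (adjusted p 0.0673 to 0.0815), and without the second male library for *verm* and *CPF2* (adjusted p 0.0559 to 0.0862).

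A smaller group differed against the change with age. *LOC410296* (chromosome 11, 1789767 to 1795555) had 48.2 and 58.6 FPKM in the female libraries, against 13.2 and 11.4 FPKM in the male libraries (difference 2.03 ± 0.26 SE, adjusted p = 5.48e-04), although it changed by −2.63 on the log2 scale between the younger and the older embryos. *LOC100578606* (chromosome 1, 27618015 to 27623018) had 14.6 and 11.9 FPKM in the female libraries, against 1.32 and 1.57 FPKM in the male libraries (difference 2.54 ± 0.35 SE, adjusted p = 7.80e-04) and changed by −1.48 with age. *LOC100577484*, *LOC411133* and *LOC726669* were also higher in females, by 1.87, 1.51 and 1.43, and fell with age. Among lower loci that rose with age, an unnamed locus on chromosome 16 at 3797741 had 43.7 and 9.57 FPKM in the female libraries, against 94.1 and 75.8 FPKM in the male libraries (difference −1.98 ± 0.54 SE, adjusted p = 0.0279). The 4-library fit did not call the unnamed locus, and it was also lost without the second female library (adjusted p = 0.179), without the first male library (adjusted p = 0.145), and without the second male library (adjusted p = 0.0807).

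Loci at their highest or lowest at 25–40 h were more often lower in females. Of 572 loci that were at least 1 log2 unit above both other ages, 41 (7.17%) were higher and 78 (13.6%) lower in females, with a median of −0.28. Of 286 loci that were at least 1 log2 unit below both other ages, 10 (3.5%) were higher and 69 (24.1%) lower, with a median of −0.36. The remaining 8545 loci had 9.64% higher and 6.92% lower. *Six4* and *slp* were peak loci higher in females, and *Dfd* and *Eg* were peak loci lower in females. *SVP*, *Amci*, *Baiap3* and *CPR13* belonged to the low-point group. The group of a locus was set with the mean of the same 4 libraries, so it is not independent of them.

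Some loci were listed at 0 in both libraries of a sex. A locus on chromosome 10 (11367180 to 11367300) had 22.1 and 27.4 FPKM in females and was listed at 0 in both male libraries. It had 287 and 56.0 FPKM in females and 27.6 and 47.7 FPKM in males at 55–70 h. A locus on chromosome 9 (5245085 to 5245272) was listed at 0 in both female libraries and had 5.53 and 7.68 FPKM in males. Its call was lost without the first female library (adjusted p = 0.0804), without the second female library (adjusted p = 0.143), without the first male library (adjusted p = 0.112), and without the second male library (adjusted p = 0.146). Most loci of this kind have no gene name and are short. Their FPKM lay above the upper bound deposited for them, as at the locus on chromosome 10, where the bounds ended at 0.991 and 1.23 FPKM. No fold is given for them.

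Of 7 loci of sex determination 1 was called, lower in females. *Csd*, the primary signal of sex, and *Fem*, which it controls by splicing, lie side by side on chromosome 3. *Fem* (chromosome 3, 11113282 to 11123371) had 76.4 and 37.7 FPKM in the female libraries, against 38.4 and 91.0 FPKM in the male libraries, with overlapping groups and a difference of −0.14 ± 0.43 (SE, adjusted p = 0.866). The files list *Csd* at 3 overlapping loci. The longest (chromosome 3, 11135135 to 11146228) had 45.8 and 19.9 FPKM in the female libraries, against 27.2 and 31.4 FPKM in the male libraries (difference 0.05 ± 0.39 SE, adjusted p = 0.95). A shorter locus (chromosome 3, 11143863 to 11147236) had 39.0 and 24.2 FPKM in the female libraries, against 21.4 and 57.3 FPKM in the male libraries (difference −0.19 ± 0.54 SE, adjusted p = 0.853). The third (chromosome 3, 11143576 to 11146566) was listed at 0 in both female libraries and had 59.3 and 65.9 FPKM in the male libraries (adjusted p = 1.75e-04). It was also listed at 0 in all libraries of 10–15 h and in females of 55–70 h, while males of 55–70 h had 332 and 52.2 FPKM. Since the 3 loci share positions, the split of reads between them is uncertain, and their FPKM do not show splice forms.

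Downstream, *Dsx*, the transcription factor of sexual differentiation (chromosome 5, 3103541 to 3195400), had 5.11 and 5.26 FPKM in the female libraries, against 2.74 and 2.75 FPKM in the male libraries (difference 0.72 ± 0.26 SE, adjusted p = 0.0774), apart but not called, though quantile normalization called it higher (adjusted p = 0.031). *tra2*, a splicing cofactor (chromosome 11, 8692618 to 8698663), had 232 and 168 FPKM in the female libraries, against 283 and 272 FPKM in the male libraries (difference −0.49 ± 0.21 SE, adjusted p = 0.144), and TPM called it lower (adjusted p = 0.0317). *Fru* (chromosome 9, 4006549 to 4073760), known from *Drosophila* for its part in courtship circuits, had 36.3 and 36.2 FPKM in the female libraries, against 50.9 and 34.3 FPKM in the male libraries (difference −0.20 ± 0.27 SE, adjusted p = 0.671). The locus that contains *LOC552468*, the gene the study named *glu* (chromosome 11, 1066626 to 1096455), was not kept, because the estimate failed in the first male library. Its other values were 232 and 249 FPKM in females and 481 FPKM in the second male library. The homologues of *Drosophila* dosage compensation genes were not called, with *msl-3* at 29.7 and 12.5 FPKM in females against 23.4 and 34.6 FPKM in males and *mof* at 30.1 and 17.5 FPKM in females against 23.7 and 30.1 FPKM in males. Of the 4 DNA methyltransferase loci 0 were called by limma in either fit, and 1 was lower at an unadjusted p under 0.05. Median-ratio, quantile and TPM scaling each called 1 lower.

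The sex difference at 25–40 h was compared with the mean sex difference at 10–15 h and 55–70 h in the same fit. It differed at 1153 of 9393 loci (12.3%), with 734 shifted toward females and 419 toward males. Of the loci called at 25–40 h, 569 of the 875 higher and 377 of the 738 lower were also called in this comparison in the same direction. The comparison contains the difference at 25–40 h itself, so this overlap is not separate evidence. The contrast ran between −3.60 and −5.15 for the falling loci *LOC408817*, *LOC100576271*, *LOC726733* and *LOC100578989*, and 3.79 for *LOC100577835*.

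Called loci lay on all 16 chromosomes. The share called ranged between 12.9% on chromosome 8 and 21.8% on chromosome 16, apart from chromosome 13 with 28.2% (54 higher and 33 lower of 308). None of the 12 mitochondrial loci was called. Part of the count on chromosome 13 came from a single stretch (4036182 to 4108582), where a locus of *LOC726491* and *LOC726547* had 31.7 and 40.2 FPKM in females against 3.35 and 9.22 FPKM in males. Inside it lie 8 unnamed short loci, all called higher. Without these the chromosome had 79 of 300 loci called (26.3%). Of the unnamed loci called anywhere, 38 of 138 higher ones (27.5%) and 48 of 156 lower ones (30.8%) lay inside a named locus, against 344 of 1268 unnamed loci not called (27.1%).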

How the data were processed

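Poly(A) RNA of 12 embryo pools, 2 per sex and age, was sequenced by the authors. As deposited, the files hold FPKM per assembled locus with confidence bounds and a status. The labels name Bowtie2 2.2.6, TopHat2 and Cufflinks 2.2.1. As for the build of the genome, it is not given in the sources used. Reads per library are unknown, so no counting interval is given. Chromosomes were assigned to the sequences of the files by the RefSeq linkage group of most of their named genes (Amel_HAv3.1), and coordinates are those of the files. Loci are named by their symbols in the files, without product names.

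Loci with a valid status in the 4 libraries of 25–40 h and a mean of at least 1 FPKM entered limma 3.58.1 (R 4.3.3) on log2(FPKM + 1), as 6 group means over 12 libraries with a variance trend and 6 residual degrees of freedom. Adjusted p-values are Benjamini-Hochberg over all 9403 loci, with a threshold of 0.05. Single values were tested by exact two-sided permutation. The text names, in each direction, the 10 largest called differences of loci with a gene symbol, up to 5 loci listed at 0 in a sex, up to 4 called members of each of 34 lists, up to 5 that go against the change with age, the 5 smallest p-values of the contrast between ages, and the sex determination genes. The part of the rule for loci known by product name gave none. Some loci that the rule names are not reported here. Uncalled members that are named (*disp*, *smo*, *Scr*, *Prd*, *h*, *Kr*, *Tll*, *COX1*, *CYP18A1*, *msl-3*, *mof*) and second loci of a symbol were chosen after their values were seen. Members and lists were chosen with earlier results of these data known. In data simulated from these libraries, 97 of 100 changes of 4-fold and 12 of 100 of 2-fold were recovered in the fit of 12, with 5 unchanged loci called. The simulation gave a locus the same normal spread at every age, as the fit assumes, although the measured spread was largest at 25–40 h. It therefore cannot show how often unchanged loci are called in the real libraries. Libraries were not paired by replicate number, and whether same-numbered pools were handled together is not in the labels. The correlation of their deviations was −0.04 at 10–15 h, −0.03 at 25–40 h and 0.19 at 55–70 h. Alternatives changed the pseudocount, filter, scaling, status rule, libraries and variance model. The deposited bounds were used only to mark values outside them.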

Additional observations from a re-analysis of the deposited data

Results flagged for a closer look

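The sex difference at 25–40 h departed from the mean sex difference at the other ages at 1153 loci by limma's adjusted p. The 5 with the smallest p in this contrast were *LOC408817* at −4.33, *LOC100576271* at −5.15, *LOC726733* at −3.84, *LOC100577835* at 3.79 and *LOC100578989* at −3.60 on the log2(FPKM + 1) scale. *LOC408817* had 40.7 and 47.5 FPKM in the female libraries, against 959 and 576 FPKM in the male libraries, and *LOC100576271* had 9.04 and 13.3 FPKM in the female libraries, against 377 and 178 FPKM in the male libraries. *LOC726733* had 22.2 and 26.6 FPKM in the female libraries, against 436 and 257 FPKM in the male libraries, and *LOC100578989* had 1.08 and 1.03 FPKM in the female libraries, against 20.2 and 14.1 FPKM in the male libraries. Only *LOC100577835* was higher in females among these 5, with 20.1 and 27.7 FPKM in the female libraries, against 1.37 and 1.18 FPKM in the male libraries. All 5 were called at 25–40 h in every alternative run, including the fit of only the 4 libraries.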

How the results depend on the processing

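Of 141 named loci called, 69 stayed called in every alternative. None of the 141 changed direction, but most alternatives could not have reversed one. Female and male libraries did not overlap at any called locus. Leaving out a library, or changing the pseudocount, filter or variance model, therefore keeps the direction. Quantile normalization ended 4 of the 141 calls, among them *Cox6c* and *babo* (adjusted p 0.0589 to 0.129). TPM ended 5, among them *CPF2* and *Pros25* (adjusted p 0.0552 to 0.0975), and median-ratio scaling ended 6. The number of loci higher in females was 875, and 567 with a filter of 5 FPKM, 571 without loci outside their bounds, 401 in the fit of only the 4 libraries and 447 with array weights. Leaving out a library gave 367 to 905. The number lower in females was 738, and 439, 337 and 415 with that filter, the 4 libraries and array weights, and 1168 under TPM. Leaving out a library gave 335 to 1490. Of all calls 54.2% were higher, with 37.5% under TPM, 36.5% to 58.0% without a library and 49.5% to 56.4% under the other alternatives. The contrast between ages was called at 1153 loci, at 750 with the filter of 5 FPKM, at 609 with array weights and at 464 to 1188 without a library. The change with age was called at 7239 loci, at 4821 with that filter and at 12519 with none. Here a stricter filter tests fewer loci. The replicate block gave 788 higher and 695 lower loci, and a block within each age 713 and 617. At 25–40 h same-numbered libraries did not deviate together. This cannot show whether they were collected or handled together, which the labels do not give.

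The sign changed at 4 uncalled sex determination loci. *Fem* ran between −0.75 and 0.47 when a library was left out, the longest *Csd* locus between −0.53 and 0.63, the shorter *Csd* locus between −0.88 and 0.50, and *Fru* between −0.48 and 0.080. Under TPM the longest *Csd* locus was at −0.16. The cause was not tested. The TPM median turned negative for the lists of segment polarity, Wnt, Notch, DNA replication, proteasome, Dpp and BMP, Toll, storage protein and DNA methyltransferase genes. Unknown read numbers limit how firmly levels near 1 FPKM can be compared.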
